A study of Mus musculus with 9 samples.

Results

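The question was which transcripts of tumor-infiltrating leukocytes differed when the STING agonist ADU-S100 was added to doxorubicin, at an equal dose of doxorubicin. The comparison used 6 of the 9 libraries of the study, namely 3 libraries of the doxorubicin group and 3 of the doxorubicin + ADU-S100 group, which is called the combination here. Both were chosen by their treatment labels alone, and all 16373 genes that passed a filter on low counts were compared, of 45777 genes in the table. The 3 control vehicle libraries entered the model only to help estimate the spread, and their values are given as background.

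All groups were BALB/c mice that carried WEHI-164 tumors under the skin, grown from a fibrosarcoma cell line that is syngeneic to this strain. Doxorubicin, a DNA-damaging anthracycline, was injected into the tumors each week at 5 mg/kg in both compared groups. The combination group also received intratumoral injections of 25 µg of ADU-S100, a synthetic cyclic dinucleotide, more than once a week. Tumors were taken at day 7 and dissociated, and cells that bound CD45 beads were collected for RNA sequencing. The age of the mice is not given in the sources used here, which also do not say whether each library came from a single mouse, so the p-values measure only the spread between these libraries. No library of ADU-S100 without doxorubicin was among the samples, and an effect of the agonist by itself therefore cannot be told apart from an effect that needs doxorubicin. The model is limited to 1 tumor line and 1 route of injection.

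STING is an adaptor protein of the endoplasmic reticulum that binds cyclic dinucleotides, which the enzyme cGAS makes when it meets DNA in the cytosol. Bound STING recruits the kinase TBK1, which activates the transcription factor IRF3, and it also activates NF-kappaB. IRF3 and NF-kappaB start transcription of interferon beta and of inflammatory cytokines. Secreted interferon then acts on neighbouring cells through its receptor and induces a broad set of antiviral genes, the interferon-stimulated genes.

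The libraries differed in more than the agonist. Total counts were 50110494 to 56405228 with doxorubicin and 53173754 to 69456603 with the combination. Ptprc, which encodes CD45, was at 383, 360 and 409 CPM (counts relative to the scaled library size) in doxorubicin replicates 1 to 3 and at 361, 627 and 189 CPM in combination replicates 1 to 3. The mean log2 CPM of 33 fibroblast and sarcoma cell genes was 5.08, 3.16 and 4.88 with doxorubicin and 3.13, 3.54 and 6.26 with the combination. Combination replicate 3 thus had the lowest Ptprc and the highest fibroblast transcripts of all 9 libraries. The share of counts from mitochondrially encoded RNA was 13.14% in combination replicate 1 and 1.261% to 6.933% in the other 5 compared libraries. On the first principal component, which held 45.02% of the variance, combination replicate 3 lay at 100.9 and combination replicates 1 and 2 at -59.2 and -62.63. In bulk RNA of sorted cells, fewer cells of a type and less RNA per cell cannot be told apart.

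At the study thresholds, which ask for more than a 2-fold difference and p under 0.05 before adjustment, the combination was higher than doxorubicin for 142 genes and lower for 57. These were 0.867% and 0.348% of the genes tested. Of the 142, 118 were protein coding, 77 were above all doxorubicin libraries in every combination library, and the median log2 fold change was 1.46. Of the 57, 45 were protein coding, 38 did not overlap between the groups, and the median was -1.61. Over all genes, the combination exceeded all doxorubicin libraries in each of its 3 libraries for 578 genes (3.53%) and lay below them for 430 (2.63%). These shares over all genes are the background for the counts of each list below. The median log2 fold change of all genes was 0.07, and 58.58% of genes were positive. No gene passed the correction for multiple testing in edgeR, in which the smallest adjusted p was 0.9995 and 451 genes had an unadjusted p under 0.05. DESeq2 gave 9 genes an adjusted p under 0.05, and limma-voom gave 0. The 9 genes, Cbarp, Nr4a3, Ptger1, Sertad1, Grasp, Flrt3, Irf1, Areg and Car3, were all higher with the combination and are among the 12 higher genes with the smallest p in edgeR after predicted genes and clone names were left out, which made up 24 of the 142 higher and 14 of the 57 lower genes.

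**Figure D1:**
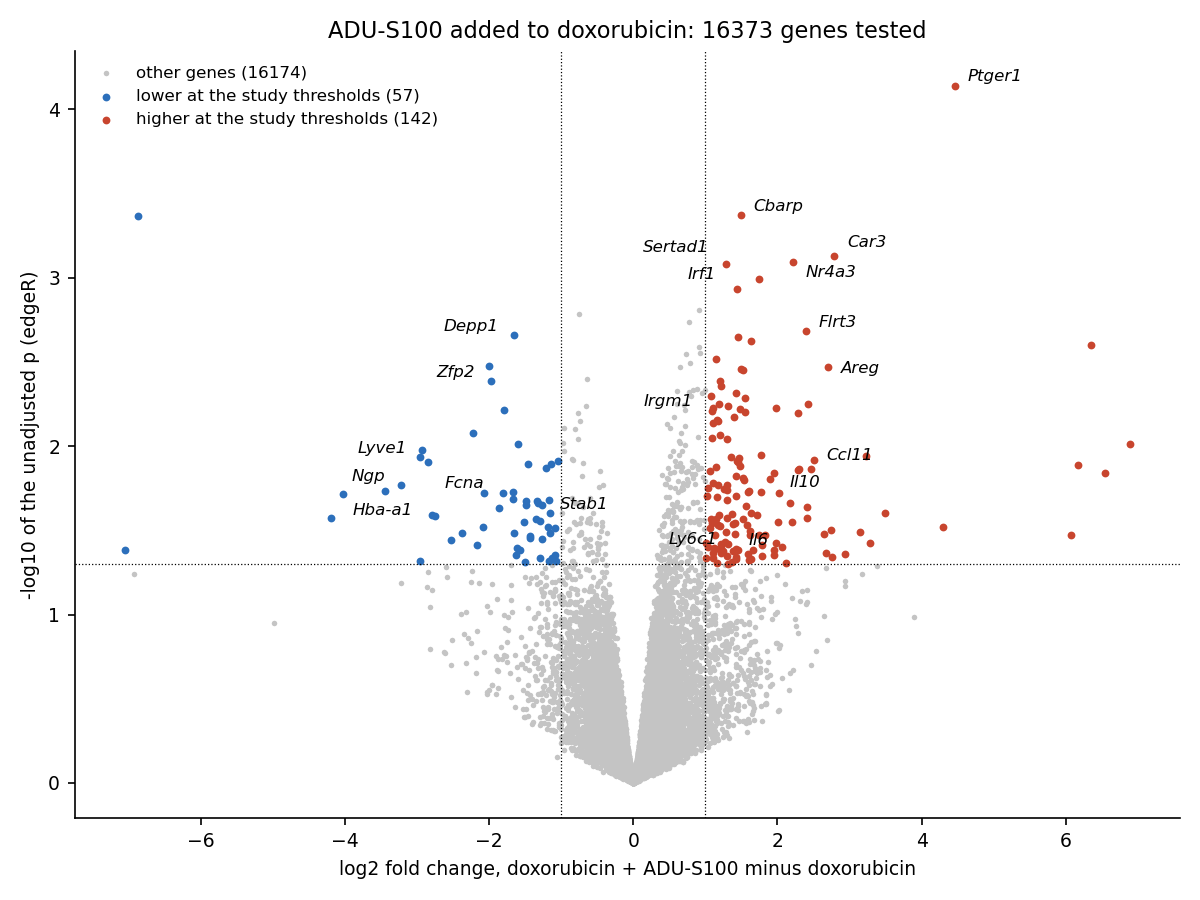
Each point is a gene, with its log2 fold change on the x axis (doxorubicin + ADU-S100 minus doxorubicin) and the -log10 of its unadjusted edgeR p on the y axis. Red points (142) and blue points (57) pass the study thresholds, drawn as dotted lines, and Ptger1 is the highest point. Most points beyond 6 on either side are genes with no count in a group, whose fitted fold change is no bound.

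Genes higher in every combination library led the comparison. Ptger1, which encodes the EP1 receptor for prostaglandin E2, had 3, 2 and 1 counts in doxorubicin replicates 1 to 3 and 64, 37 and 44 counts in the combination replicates. The ratio of the summed counts, corrected for library size, was 22.9, with an exact 95% interval of 10.3 to 63.5 that covers counting error only. Control libraries had 1 or 2 counts, so the transcript was at the floor wherever the agonist was not given. Ptger1 thus passed the filter on low counts only through the group in which it was high. Its ratio and p are subject to that selection. Ptger1 has the gene ID 19216 and lies on chromosome 8 of GRCm38, from 83666644 to 83672756. The log2 fold change of Ptger1 in edgeR was 4.47 (standard error 0.66, unadjusted p = 7.24e-05), which rests on these low counts.

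Cbarp, a regulator of voltage-gated calcium channels, was at 3.73, 2.64 and 3.70 CPM with doxorubicin and at 11.3, 9.63 and 7.38 CPM with the combination. The log2 fold change of Cbarp was 1.49 (standard error 0.28, unadjusted p = 0.000427 in edgeR), and control libraries were at 4.01 to 4.66 CPM. Sertad1, a transcriptional coregulator of the cell cycle, was at 27.2, 42.5 and 30.5 CPM with doxorubicin and 88.0, 97.4 and 59.7 CPM with the combination. Each of these genes separated the groups fully, with the lowest combination value in replicate 3. Cbarp overlaps Stk11 and Atp5d on the opposite strand, whose log2 fold changes were 0.09 and 0.10. The strand setting of the counting is not given in the sources used here. Grasp, a scaffold protein, Flrt3, an adhesion protein, and Zfp667, a zinc finger protein, had log2 fold changes of 1.75, 2.40 and 1.63 and were above all doxorubicin libraries in all 3 combination libraries. In combination replicate 3, Flrt3 (11.9 CPM) lay within the control range of 8.72 to 18.7 CPM, whereas Grasp and Zfp667 lay above their control ranges. Coq10b, a coenzyme Q binding protein, was at 1.15, and its call ended without combination replicate 2 (0.74). Car3, a carbonic anhydrase of muscle and fat, had 29 counts over the doxorubicin libraries and 208 over the combination libraries, a ratio of 6.81 (exact 95% interval 4.60 to 10.4). Leaving out any single library ended none of the other calls among these genes or that of Ptger1.

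The sensing machinery itself did not stand out. Of 18 tested genes of STING and DNA sensing, 9 had a positive log2 fold change, the median was 0.00, and 0 passed the study thresholds in either direction, although 3 were higher without combination replicate 3. Tmem173, which encodes STING, was at 369, 170 and 171 CPM with doxorubicin and 299, 200 and 145 CPM with the combination. Cgas was at 13.5, 15.0 and 14.8 CPM and at 15.9, 16.0 and 13.5 CPM in the same order. For both genes the groups overlapped, and the log2 fold changes were -0.14 (standard error 0.39) and 0.07 (standard error 0.21). The kinase gene Tbk1 (0.19) and the factor gene Irf3 (0.10) also overlapped between groups. Enpp1, which breaks down the natural STING ligand outside the cell, had the smallest p of the list at -0.63 (standard error 0.27), below the fold threshold. Irf7, an interferon-induced factor that amplifies interferon production, was at 113, 189 and 304 CPM with doxorubicin and 686, 539 and 115 CPM with the combination. It was high in combination replicates 1 and 2, and replicate 3 was near the lowest doxorubicin value. Trex1, a cytosolic DNA nuclease, and Zbp1, a nucleic acid sensor, followed the same order of libraries, with log2 fold changes of 0.86 and 0.76 that did not pass.

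Interferon transcripts were scarce at day 7. Ifnb1, which encodes interferon beta, was at 0.418, 0.291 and 0.743 CPM with doxorubicin and 0.684, 1.64 and 0.337 CPM with the combination. The groups overlapped, and the log2 fold change was 0.86 (standard error 0.64, unadjusted p = 0.209 in edgeR). Of 20 listed interferon and receptor genes, 7 passed the filter, and the interferon alpha genes in the list had at most 2 counts in any library. Among the receptor genes, Ifngr2 had a log2 fold change of 0.36, Ifnar1 of 0.35 and Ifnar2 of 0.22, and none passed.

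Of 20 genes of the interferon gamma response and its GTPases, all 20 had a positive log2 fold change, and their median was 0.51. The mean log2 CPM of the list was 6.25, 6.75 and 6.35 with doxorubicin and 7.04, 7.36 and 6.66 with the combination. Combination replicate 3 thus lay within the doxorubicin range, and control replicate 1 was at 7.035. Of the 20 genes, 7 were above all doxorubicin libraries in combination replicates 1 and 2 but not in 3. By the study thresholds, 3 were higher (Irf1, Irgm1 and Socs1) and 0 lower, and 7 were above all doxorubicin libraries in every combination library (0.867%, 0.348% and 3.53% over all genes). Irf1, a transcription factor that interferons and NF-kappaB induce, was at 221, 243 and 199 CPM with doxorubicin and 542, 692 and 565 CPM with the combination. Irgm1, a GTPase that defends against intracellular pathogens, was at 104, 130 and 122 CPM with doxorubicin and 270, 278 and 263 CPM with the combination. Both were about equally high in the 3 combination libraries, replicate 3 included. Their means were 600 ± 80.9 CPM (SD, n = 3) against 221 ± 21.8 CPM for Irf1 and 270.5 ± 7.76 CPM (SD, n = 3) against 119 ± 13.2 CPM for Irgm1. The differences were larger than the spread between libraries, with log2 fold changes of 1.44 (standard error 0.31, unadjusted p = 0.00117) and 1.19 (standard error 0.33, unadjusted p = 0.00559) in edgeR, and leaving out each library in turn gave 1.33 to 1.51 and 1.10 to 1.25. Control replicate 1 was at 164 CPM for Irgm1, and the highest control value of Irf1 was 234 CPM, both below the combination.

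Socs1, a feedback inhibitor of cytokine receptors, was at 10.9, 25.1 and 18.9 CPM with doxorubicin and 51.2, 41.1 and 27.7 CPM with the combination. The groups did not overlap, with replicate 3 of the combination just above the highest doxorubicin value. Its call at 1.13 (standard error 0.45) ended without doxorubicin replicate 1 (0.86) or 3 (1.15), or combination replicate 1 (0.87) or 2 (1.11). Irgm2, a further GTPase of the family, did not overlap between the groups either, at a log2 fold change of 0.92. Of the 13 genes of the list with a promoter in the RefSeq table, 11 held an interferon-stimulated response element, searched as GAAANNGAAA on both strands from 250 bases before to 50 bases after the start. This was 73.3% of 15 promoter windows, against 3.24% of 15019 windows of all tested genes, and the list was made of known interferon targets. Irgm1 and Socs1, called genes of the list with such a match, are shown with the matches in capitals (RefSeq, GRCm38.p6, minus strand, 5′ to 3′). In each, 2 matches overlap, and they begin 30 and 24 bases before the start of Irgm1 (chr11:48871371-48871670) and 83 and 77 bases before that of Socs1 (chr16:10785487-10785786). A further run of capitals in the Irgm1 window is an AP-1 element (TGANTCA).
Irgm1: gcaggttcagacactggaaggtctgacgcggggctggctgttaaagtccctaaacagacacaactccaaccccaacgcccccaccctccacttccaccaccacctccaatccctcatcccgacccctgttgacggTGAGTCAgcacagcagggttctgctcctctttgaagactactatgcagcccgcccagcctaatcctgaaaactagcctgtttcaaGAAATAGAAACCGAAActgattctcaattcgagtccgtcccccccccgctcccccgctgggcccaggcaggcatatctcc
Socs1: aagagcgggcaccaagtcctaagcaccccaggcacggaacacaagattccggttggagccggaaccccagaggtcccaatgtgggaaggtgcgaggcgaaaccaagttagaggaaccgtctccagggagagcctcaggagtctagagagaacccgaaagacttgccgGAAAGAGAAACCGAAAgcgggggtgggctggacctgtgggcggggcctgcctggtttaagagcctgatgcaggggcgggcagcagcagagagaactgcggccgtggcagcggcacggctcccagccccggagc

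The broader type I interferon response differed strongly between the combination libraries. All 43 genes of the list had a positive log2 fold change, with a median of 0.73, 6 were higher at the study thresholds, and 5 were above all doxorubicin libraries in every combination library. The mean log2 CPM of the list was 5.10, 5.43 and 5.84 in doxorubicin replicates 1 to 3 and 6.69, 6.59 and 5.14 in combination replicates 1 to 3. Combination replicates 1 and 2 were thus above every doxorubicin library, and replicate 3 lay at the level of the lowest. Of the 43 genes, 34 showed this order, above all doxorubicin libraries in combination replicates 1 and 2 but not in 3. Over all genes tested, 1774 (10.8%) had this order, against 650 (3.97%) for replicates 1 and 3 without 2 and 447 (2.73%) for replicates 2 and 3 without 1.

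Bst2, or tetherin, which holds budding viruses at the cell surface, was an exception at 105, 172 and 143 CPM with doxorubicin and 240, 246 and 236 CPM with the combination. It was high in all 3 combination libraries, with a log2 fold change of 0.78 (standard error 0.20, unadjusted p = 0.00323 in edgeR) that is below the fold threshold. Xaf1, a proapoptotic interferon target, was at 23.1, 35.3 and 35.9 CPM and at 96.5, 63.1 and 41.0 CPM, a log2 fold change of 1.09 (standard error 0.31). The call of Xaf1 ended without doxorubicin replicate 1 (0.91) or combination replicate 1 (0.68). Eif2ak2, the double-stranded RNA kinase PKR, and Ifi35 had log2 fold changes of 0.73 and 0.74. Chosen after its values were seen, Isg15, a ubiquitin-like modifier, was at 29.9, 63.9 and 86.5 CPM with doxorubicin and 283, 203 and 49.7 CPM with the combination. Its combination replicate 3 was within the doxorubicin range, and its log2 fold change was 1.57. The remaining higher members were Oas1g, Mx2, Trim30d and Oasl2, at 1.10, 1.24, 1.30 and 1.01. Without combination replicate 3, the median of the list was 1.10 and 25 of its genes were higher at the thresholds. Without combination replicate 1 or 2, the medians were 0.46 and 0.60, with 0 and 1 genes higher, and without doxorubicin replicate 1, 2 or 3 the counts were 0, 1 and 11. Without control replicate 2 the count was 3. With the fibroblast mean as a covariate 4 were higher, and 16 were when the library with the highest fibroblast mean was left out of each group, both chosen after the data were seen.

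**Figure D2:**
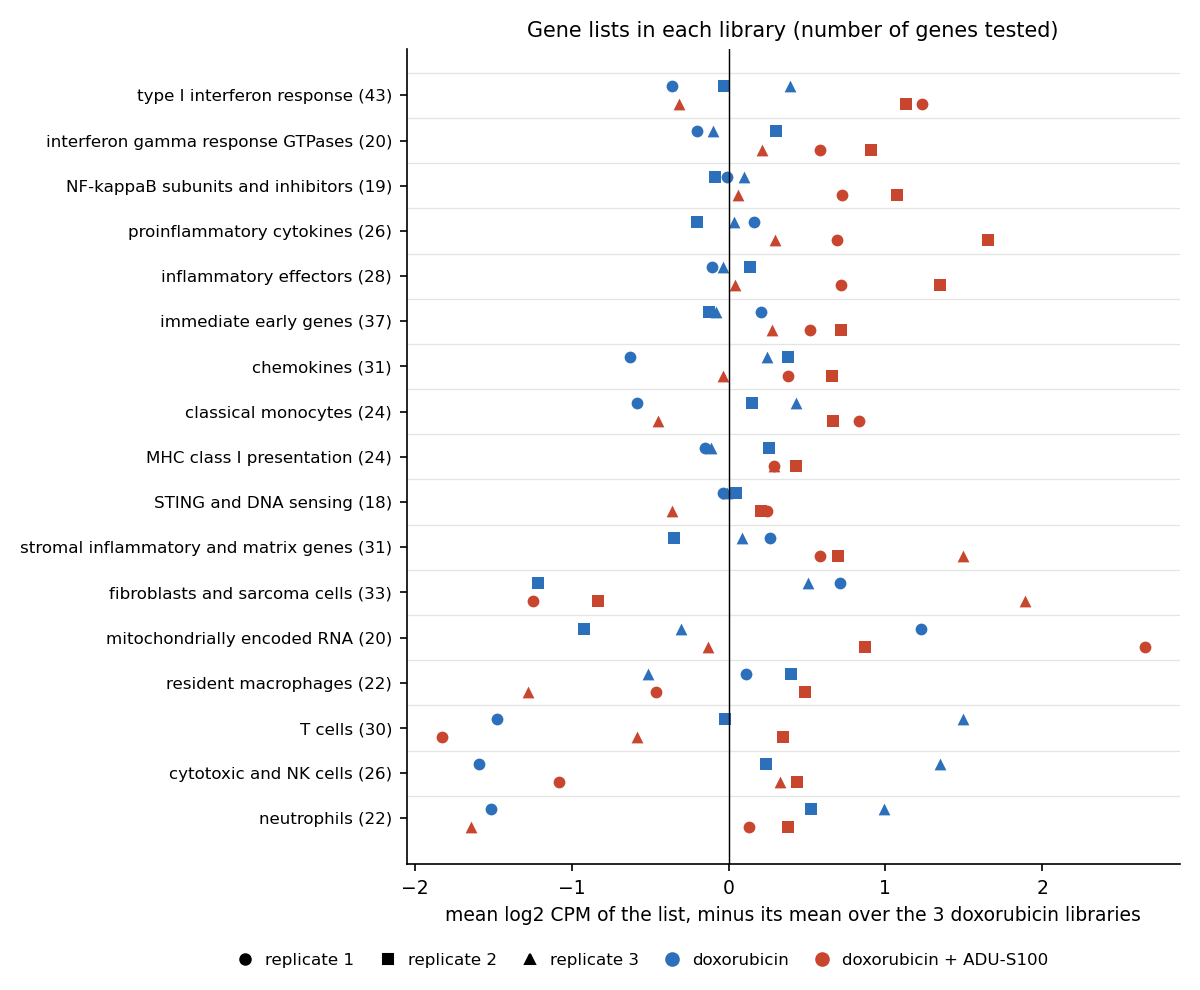
Each row is a gene list with the number of genes tested, and each marker is a library, placed on the x axis at the mean log2 CPM of the list minus its mean over the 3 doxorubicin libraries. In the type I interferon row, combination replicates 1 and 2 (red circle and square) lie above all doxorubicin libraries and replicate 3 (red triangle) among them, whereas in the row of stromal inflammatory and matrix genes all 3 red markers lie above the blue ones. Control libraries are not drawn. For the stromal list, control replicate 2 was at a mean log2 CPM of 3.20, above combination replicates 1 (2.83) and 2 (2.95).

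Some NF-kappaB genes were above all doxorubicin libraries in every combination library. Every fold change of the 19 genes of NF-kappaB subunits and inhibitors was positive (median 0.55). At the thresholds 4 were higher and 0 lower, and 7 were above all doxorubicin libraries in every combination library (0.867%, 0.348% and 3.53% over all genes). Rela, the main activating subunit, was at 72.6, 72.3 and 76.8 CPM with doxorubicin and 98.3, 102 and 105 CPM with the combination. The difference was small but even, with a log2 fold change of 0.46 (standard error 0.14) that does not reach the fold threshold. Rel, the subunit c-Rel of lymphoid and myeloid cells, was at 49.9, 29.7 and 33.0 CPM and at 89.8, 157 and 53.8 CPM. Nfkbie, which encodes the inhibitor I-kappaB-epsilon, was at 64.9, 58.1 and 63.4 CPM with doxorubicin and 209, 243 and 75.5 CPM with the combination. Tnip3, a partner of the inhibitor A20, was at 24.9, 33.3 and 34.2 CPM and at 83.4, 127 and 43.6 CPM. These 3 genes were highest in combination replicates 1 and 2 and still above all doxorubicin libraries in replicate 3, with log2 fold changes of 1.42, 1.50 and 1.46. In combination replicate 3, Rel and Nfkbie lay within the control ranges of 41.1 to 62.6 and 51.3 to 81.1 CPM. Tnip3 lay above its control range of 26.2 to 35.8 CPM. The call of Rel ended without combination replicate 2 (0.94), and those of Nfkbie and Tnip3 held without any single library (1.19 to 1.86 and 1.04 to 1.77). The list had 2 higher genes without combination replicate 2 and 8 with the library of the highest fibroblast mean left out of each group, which was chosen after the data were seen.

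Of 26 genes listed as proinflammatory cytokines, 24 were positive, with a median of 1.07. The list is broader than its name, as it also holds the anti-inflammatory Il10 and the growth factor Areg. Inhba is also in the list of stromal inflammatory and matrix genes. At the thresholds 6 were higher (Areg, Il10, Il6, Tnfsf15, Inhba and Il1a) and 0 lower. In every combination library 4 were above all doxorubicin libraries. Over all genes these shares were 0.867%, 0.348% and 3.53%. Areg, or amphiregulin, a growth factor that binds the EGF receptor, was at 6.22, 8.89 and 7.07 CPM with doxorubicin and 45.3, 88.8 and 10.3 CPM with the combination. All 3 combination libraries were above the doxorubicin libraries, and its log2 fold change was 2.70 (standard error 0.69), with 1.91 without combination replicate 2 and 3.18 without replicate 3. Control libraries were at 7.13 to 19.1 CPM for Areg, a range that holds combination replicate 3. Il10, an anti-inflammatory cytokine, was at 4.67, 2.37 and 2.54 CPM and at 11.3, 23.4 and 4.50 CPM. Il6, a cytokine of the acute phase response, was at 2.20, 5.66 and 3.09 CPM with doxorubicin and 12.3, 27.7 and 3.96 CPM with the combination. In both, combination replicate 3 lay within the doxorubicin range. The calls of Il10 and Il6 ended without combination replicate 2 (1.30 and 1.15) or doxorubicin replicate 3 (1.89 in each). Il10 also lost its call without doxorubicin replicate 2 (1.85), as did Il6 without doxorubicin replicate 1 (1.74). Il15, which sustains NK cells and memory T cells, had a log2 fold change of 0.67 and did not pass. Without combination replicate 2 only 1 gene of the list was higher at the thresholds, and without replicate 3 there were 13, and without doxorubicin replicate 2 or 3 the counts were 2 and 3.

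Each of the 28 inflammatory effector genes was positive (median 0.93), and 7 were higher at the thresholds with 0 lower (0.867% and 0.348% over all genes). Arg2, the mitochondrial arginase, was at 41.3, 53.5 and 50.8 CPM with doxorubicin and 161, 198 and 49.7 CPM with the combination, a log2 fold change of 1.49 (standard error 0.42). It stood high in combination replicates 1 and 2 alone. Procr, the endothelial protein C receptor, was at 6.06, 7.37 and 8.21 CPM and at 14.3, 37.4 and 12.1 CPM, without overlap. Tnfaip6, a hyaluronan-binding protein of inflamed tissue, and Gadd45b, a stress-induced signalling protein, had log2 fold changes of 1.44 and 1.17. Without combination replicate 2 the calls of Procr (0.87), Tnfaip6 (1.07) and Gadd45b (0.70) ended, and that of Gadd45b also without doxorubicin replicate 1 (1.02). The count of higher genes in this list was 1 without combination replicate 2, 4 without doxorubicin replicate 1 and 11 without combination replicate 3.

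Chemokine genes were less uniform. Of 31 tested, 22 were positive, with a median of 0.27, and Ccl11 and Cxcl1 were higher at the thresholds. Ccl11, or eotaxin, which attracts eosinophils, was at 0.455, 0.369 and 0.512 CPM with doxorubicin and 2.59, 1.49 and 3.54 CPM with the combination. Its highest value lay in combination replicate 3, and its log2 fold change was 2.51, between 2.19 and 2.78 with each library left out. Control replicate 2 was at 1.59 CPM for Ccl11, above combination replicate 2. Cxcl1, a neutrophil attractant, was at 222, 135 and 132 CPM with doxorubicin and 309, 596 and 430 CPM with the combination. The groups did not overlap, although control replicate 2 was at 548 CPM, and the call at 1.45 (standard error 0.61) ended without doxorubicin replicate 2 (1.33) or 3 (1.32) or combination replicate 2 (1.18) or 3 (1.47). Ccl11 and Cxcl1 are also made by fibroblasts, and the fibroblast list mean was highest in combination replicate 3. Cxcl1 was at 1.56 with the fibroblast mean as a covariate and at 1.76 with the library of the highest fibroblast mean left out of each group. Neither fit ended the calls of Ccl11 and Cxcl1, and both fits were chosen after the data were seen. The part of fibroblasts in these 2 genes was not tested. The lymphocyte attractants Cxcl10 (107, 199 and 171 CPM against 301, 452 and 132 CPM) and Ccl5 (7.46, 27.3 and 31.5 CPM against 46.7, 109 and 11.3 CPM) were high in combination replicates 1 and 2. Their log2 fold changes of 0.89 and 1.34 did not pass, and combination replicate 3 lay within the doxorubicin range for both. The chemokine list had 5 higher genes without combination replicate 3, and 1 higher and 2 lower without replicate 2.

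The promoters of Cxcl1, Il6 and Rel are shown because each gene was higher and its window held a kappaB element, searched as GGGNNTTTCC on both strands. Among promoter windows of the genes higher at the thresholds, 7 of 120 (5.83%) held this element, against 267 of 15019 windows (1.78%) of all tested genes and 0 of 49 windows of the lower genes. In the list of NF-kappaB subunits and inhibitors it was 8 of 21 windows (38.1%). These are counts of matching letters and were not tested. The element lies 89 and 71 bases before the start of Cxcl1 (chr5:90890995-90891294, plus strand), 44 bases before that of Il6 (chr5:30012864-30013163, plus strand) and 91 bases before that of Rel (chr11:23770920-23771219, minus strand). Capitals mark the elements (RefSeq, GRCm38.p6, 5′ to 3′), and the first capitals of the Il6 window are an AP-1 element that begins 249 bases before the start.
Cxcl1: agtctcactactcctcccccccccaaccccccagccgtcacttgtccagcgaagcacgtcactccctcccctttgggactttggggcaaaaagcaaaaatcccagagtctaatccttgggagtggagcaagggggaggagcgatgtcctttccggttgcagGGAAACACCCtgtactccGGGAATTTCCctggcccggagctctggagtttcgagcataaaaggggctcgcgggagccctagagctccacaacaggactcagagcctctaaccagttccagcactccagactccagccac
Il6: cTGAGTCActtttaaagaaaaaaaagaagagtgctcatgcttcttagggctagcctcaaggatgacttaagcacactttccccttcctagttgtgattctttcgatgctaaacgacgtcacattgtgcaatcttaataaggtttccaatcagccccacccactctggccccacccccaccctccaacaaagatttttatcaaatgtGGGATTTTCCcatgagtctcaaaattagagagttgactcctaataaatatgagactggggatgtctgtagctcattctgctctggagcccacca
Rel: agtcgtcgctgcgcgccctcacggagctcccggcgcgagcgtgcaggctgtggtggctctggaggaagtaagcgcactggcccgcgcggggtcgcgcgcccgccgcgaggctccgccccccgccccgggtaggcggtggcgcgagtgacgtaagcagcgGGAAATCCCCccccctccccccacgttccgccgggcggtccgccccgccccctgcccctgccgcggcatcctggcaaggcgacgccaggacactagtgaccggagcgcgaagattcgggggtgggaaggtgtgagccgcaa

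**Figure D3:**
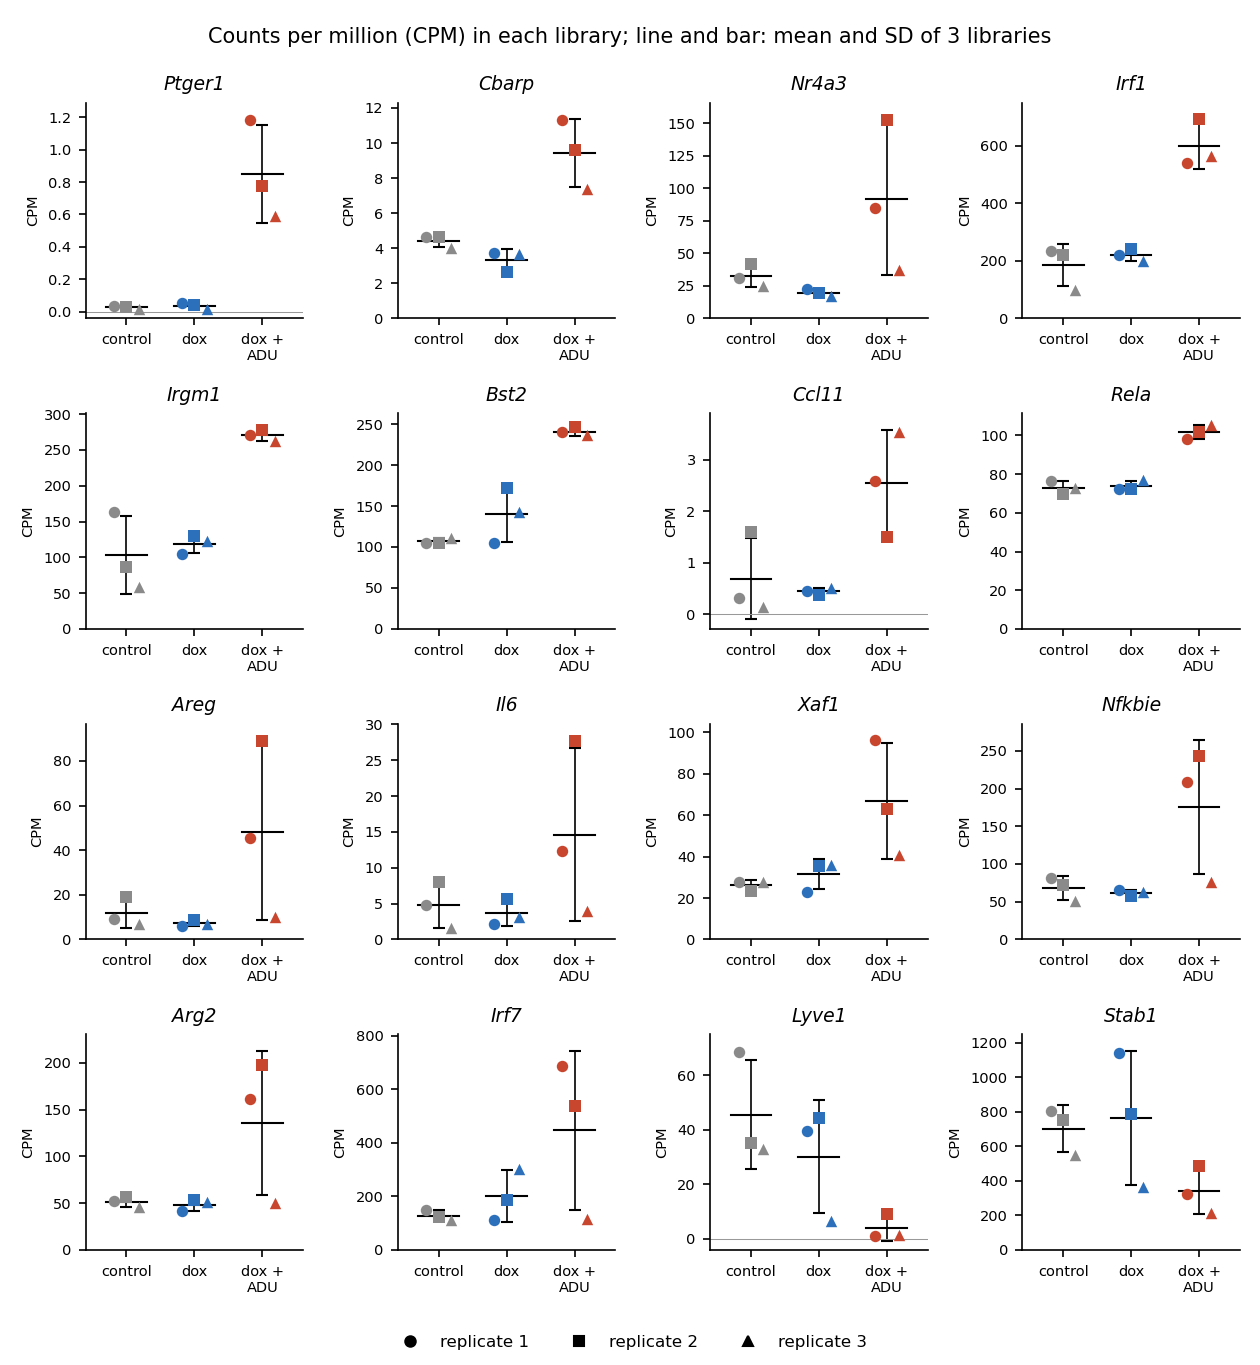
The y axis of each panel gives CPM scaled by TMM, each marker is a library (circle, square and triangle for replicates 1, 2 and 3), and the line and bar give the mean and SD of 3 libraries of control, doxorubicin (dox) and doxorubicin + ADU-S100 (dox + ADU). Irf1, Irgm1, Bst2 and Rela are even across the 3 combination libraries, whereas Il6, Arg2 and Irf7 are high in combination replicates 1 and 2 alone, and Lyve1 and Stab1 are lower on average with overlap between the groups.

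Immediate early genes are induced within minutes of a stimulus or of tissue dissociation. Of 37 tested, 29 were positive, with a median of 0.66, 8 were higher at the thresholds and 8 did not overlap between the groups, with 0 lower. Over all genes, 0.867% were higher at the thresholds and 3.53% lay above all doxorubicin libraries in every combination library. Nr4a3, an orphan nuclear receptor, was at 22.6, 19.5 and 17.0 CPM with doxorubicin and 84.6, 153 and 37.0 CPM with the combination. Crem, a cAMP-responsive repressor and activator, was at 28.0, 36.0 and 26.0 CPM and at 88.3, 133 and 37.4 CPM. Both were above all doxorubicin libraries in the 3 combination libraries, of which replicate 3 was the lowest. Control libraries were at 31.3, 41.9 and 24.8 CPM for Nr4a3, a range that holds combination replicate 3. For Crem they were at 33.4, 37.1 and 28.2 CPM, and combination replicate 3 was just above them. The log2 fold changes were 2.21 (standard error 0.45) and 1.52 (standard error 0.39), and neither call ended without any single library (1.62 to 2.59 and 1.07 to 1.88). Fosl2, a subunit of AP-1, was at 1.11, and its call ended without combination replicate 1 (0.94) or 2 (0.89). Maff, a small Maf factor, was at 1.18, and its call ended without combination replicate 2 (0.81). Without combination replicate 2 the count of higher genes in this list was 3, and without replicate 3 it was 11. Whether the cells of the 2 groups were dissociated alike is not given in the sources used here, and its part in these genes was not tested.

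Areg, Maff and Has1 were higher genes whose windows held the full cAMP response element TGACGTCA, which CREB and CREM proteins bind. This element was in 5 of 120 windows of the higher genes (4.17%), 410 of 15019 of all tested genes (2.73%) and 0 of 49 of the lower genes, shares that lie close together for the first 2 sets. AP-1 elements (TGANTCA) were in 17.5% of the windows of the higher genes, 14.3% of those of the lower genes and 5.83% of those of all genes. The Areg window is shown with its element in capitals, 61 bases before the start (chr5:91139349-91139648, plus strand, RefSeq, GRCm38.p6, 5′ to 3′).
Areg: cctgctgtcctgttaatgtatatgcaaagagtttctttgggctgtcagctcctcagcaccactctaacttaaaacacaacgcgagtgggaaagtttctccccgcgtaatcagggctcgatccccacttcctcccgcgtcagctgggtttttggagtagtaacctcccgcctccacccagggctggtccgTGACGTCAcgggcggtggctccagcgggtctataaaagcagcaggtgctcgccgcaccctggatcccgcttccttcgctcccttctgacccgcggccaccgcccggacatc

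Few genes of costimulation and antigen presentation passed the thresholds. Of 18 genes of costimulation and dendritic cell maturation, 15 were positive with a median of 0.37, and Cd80, a ligand of CD28, was higher at the thresholds. Cd80 was at 33.6, 29.4 and 30.8 CPM with doxorubicin and 108, 121 and 23.9 CPM with the combination, so combination replicate 3 was the lowest of the 6. Its call at 1.43 ended without combination replicate 1 (1.16) or 2 (1.07), or doxorubicin replicate 2 (1.39) or 3 (1.42). Cd83 and Cd86 had log2 fold changes of 0.77 and 0.58 and did not pass. Of 24 genes of MHC class I presentation, 23 were positive with a median of 0.32, and 0 passed the thresholds. H2-K1, a classical class I heavy chain, was at 853, 921 and 677 CPM and at 989, 1092 and 1229 CPM, without overlap and at a log2 fold change of 0.43 (standard error 0.21). The nonclassical genes H2-T22 and H2-T10 were at 0.65 and 0.64, also without overlap, and as members of a family of similar genes their counts may be shared. Of 15 MHC class II genes, 13 had a positive fold change (median 0.17) and 0 passed.

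Genes of the inflammasome and of cell death had a median of 0.23 over 25 genes, with 21 positive and 2 higher at the thresholds. Bcl2l11, which encodes the proapoptotic protein BIM, was at 59.4, 37.9 and 37.1 CPM with doxorubicin and 153, 147 and 52.4 CPM with the combination, a log2 fold change of 1.39 (standard error 0.40). Combination replicate 3 lay within the doxorubicin range, and the call held without any single library (1.10 to 1.75). Nlrp3, the inflammasome sensor, was at 1.15, and its call ended without combination replicate 1 (0.99) or 2 (0.77), or doxorubicin replicate 2 (1.07) or 3 (1.14). Casp4, which senses cytosolic lipopolysaccharide, was at 27.3, 35.9 and 38.5 CPM and at 73.0, 78.9 and 44.9 CPM. It did not overlap between the groups, and its log2 fold change of 0.95 (standard error 0.26) lay just below the fold threshold. The list had 8 higher genes without combination replicate 3 and 4 without doxorubicin replicate 3.

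Markers of classical monocytes passed the thresholds in 1 case. Of 24 monocyte genes, 15 had a positive fold change (median 0.34), and Ly6c1 was higher at the thresholds. Ly6c1 was at 63.1, 105 and 193 CPM with doxorubicin and 519, 260 and 179 CPM with the combination, and its near-identical neighbour Ly6c2 at 50.7, 101 and 192 CPM and 542, 255 and 79.7 CPM. In both, combination replicate 3 lay within the doxorubicin range, and how shared reads were split between these paralogs is not known. The call of Ly6c1 at 1.41 ended without doxorubicin replicate 1 (1.10) or 2 (1.32) or combination replicate 1 (0.83). S100a4, a calcium-binding protein of migrating cells, did not overlap between the groups, at 560, 704 and 915 CPM against 1380, 921 and 1504 CPM, and its log2 fold change of 0.80 did not pass. Without combination replicate 3 the monocyte list had 7 higher genes, and without doxorubicin replicate 1 or combination replicate 1 it had 0.

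Of 22 genes of resident macrophages, 15 were negative with a median of -0.40, and 4 were lower at the thresholds with 0 higher. These counts depended on the fit. Without combination replicate 3 the list had 1 lower and 3 higher genes, and without combination replicate 2 it had 7 lower. The lower genes numbered 1 or 2 without doxorubicin replicate 1 or 2 or combination replicate 1. With limma-voom, 0 were lower and 1 higher with a median of 0.07, and with the library of the highest fibroblast mean left out of each group (chosen after the data were seen) 0 were lower and 1 higher with a median of -0.01. Lyve1, a hyaluronan receptor of perivascular macrophages and lymphatic vessels, was at 39.5, 44.3 and 6.44 CPM with doxorubicin and 0.998, 9.13 and 1.52 CPM with the combination. Stab1, a scavenger receptor, was at 1143, 790 and 366 CPM and at 327, 487 and 217 CPM. In both, doxorubicin replicate 3 lay within the range of the combination. Their log2 fold changes were -2.96 (standard error 0.94) and -1.16 (standard error 0.43), and those of Fcna, a ficolin, and F13a1, a transglutaminase, were -1.80 and -1.16. The call of Lyve1 held without any single library (-4.57 to -2.56) but ended in limma-voom (-2.13) and with the libraries of the highest fibroblast mean left out (-2.33), and DESeq2 gave it no p. These fits of limma-voom and of fewer libraries also ended the other 3 calls. That of Stab1 ended without doxorubicin replicate 1 (-0.75) or 2 (-1.14) or combination replicate 1 (-1.19) or 3 (-0.91), and that of Fcna without doxorubicin replicate 2 (-1.31) or combination replicate 1 (-1.52) or 3 (-1.59). That of F13a1 ended without any of 7 of the 9 libraries, at -1.35 to -0.78. The general macrophage genes Adgre1, which encodes F4/80, and Ctsd, which encodes cathepsin D, were below all doxorubicin libraries in every combination library, at -0.73 and -0.75. Of 28 genes of tumor macrophages and lipid handling, 14 were positive, with a median of -0.02 and 0 calls, and 5 were lower without combination replicate 2.

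Neutrophil genes had a median of -0.38 over 22 genes, with 2 lower and 0 higher, and the sign rested on single libraries. The median was 0.58 without doxorubicin replicate 3 and 0.13 without combination replicate 3, where 5 were higher and 1 lower. Ngp, a neutrophil granule protein, had 6, 38 and 43 counts with doxorubicin and 0, 6 and 3 with the combination, and Padi4, the enzyme that citrullinates histones, was at 1.60, 9.43 and 1.85 CPM and at 1.46, 0.797 and 0.768 CPM. Both were lower at the thresholds, and the call of Padi4 at -2.09 ended in limma-voom (-1.15) and without doxorubicin replicate 2 (-0.78) or combination replicate 2 (-1.95) or 3 (-1.92). Trem1, a receptor that amplifies inflammation in neutrophils and monocytes, was at 0.90 and did not pass. Dendritic cell subset genes had a median of 0.08 over 18 genes, with Irf4, a factor of dendritic and plasma cells, higher at 1.08. Irf4 was at 3.15, 3.30 and 4.94 CPM and at 7.50, 9.36 and 7.24 CPM, without overlap, and its call ended in limma-voom (0.91) and without doxorubicin replicate 1 (0.96) or 2 (0.99) or combination replicate 2 (0.96). In the same list of B and plasma cell genes as Irf4, Prdm1, which encodes BLIMP-1, was higher at 1.10 and ended without combination replicate 1 (0.95) or 2 (0.83). The light chain gene Igkc was at 0.109, 0.504 and 3.68 CPM with doxorubicin and 0.037, 0.881 and 22.9 CPM with the combination, high in replicate 3 alone, where the heavy chain gene Ighg1 had 1800 counts against at most 19 in the other libraries.

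No gene of the T cell or cytotoxic cell lists passed the thresholds. Of 30 T cell genes, 3 had a positive fold change, and the median was -0.81. Cd3e, a chain of the T cell receptor complex, was at 0.346, 3.10 and 8.62 CPM with doxorubicin and 0.222, 2.33 and 1.05 CPM with the combination. Cd8a, the co-receptor of cytotoxic T cells, was at 0.600, 4.68 and 15.6 CPM and at 0.222, 3.17 and 0.633 CPM. Pdcd1, which encodes PD-1, was at 0.509, 4.35 and 12.5 CPM and at 0.720, 4.07 and 1.45 CPM. The high doxorubicin means of all 3 genes rested on replicate 3, and the groups overlapped. The log2 fold changes were -1.75 (standard error 1.10), -2.38 (standard error 1.30) and -1.48 (standard error 1.03). Without doxorubicin replicate 3 the median of the T cell list was 0.21, and with any other compared library left out it was -1.67 to -0.56. Of 26 genes of cytotoxic and NK cells and 18 checkpoint and activation receptors, 8 and 4 were positive, with medians of -0.46 and -0.43 and 0 calls, and without doxorubicin replicate 3 these medians were 0.63 and 0.38. Without combination replicate 3, 2 genes of cytotoxic and NK cells were higher. The direction of the lymphocyte lists was thus set by 1 library.

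Stromal genes of inflamed tissue were the list with the largest count of members above all doxorubicin libraries in every combination library. A ranking by count favours long lists. The shorter NF-kappaB and interferon gamma lists had larger shares, at 7 of 19 and 7 of 20 against 10 of 31. Over all genes this share was 3.53%. Among the higher genes of the stromal list, Igf1, Has1 and Cyp1b1 are in a gene set the study itself picked as higher in this contrast. The study also names Ccl11 as upregulated with the combination. These genes are therefore no independent evidence. Of 31 stromal inflammatory and matrix genes, 28 were positive, with a median of 1.22, 8 were higher at the thresholds with 0 lower, and 10 did not overlap between the groups. Igf1, an insulin-like growth factor made by macrophages and fibroblasts, was at 7.49, 5.65 and 5.65 CPM with doxorubicin and 7.94, 19.3 and 15.8 CPM with the combination, and at 19.5 to 21.5 CPM in control. The combination thus lay between doxorubicin and control. The log2 fold change came to 1.20 (standard error 0.32), and the call ended without combination replicate 2 (0.93). Has1, a hyaluronan synthase, was at 0.691, 0.349 and 1.29 CPM and at 2.20, 1.76 and 8.43 CPM. Timp1, an inhibitor of matrix metalloproteinases, was at 23.8, 32.5 and 34.0 CPM and at 61.3, 35.7 and 113 CPM. Both were highest in combination replicate 3, the library with the highest fibroblast mean. Control replicate 2, with a fibroblast mean of 5.805, was at 3.29 CPM for Has1, above combination replicates 1 and 2. It was at 47.8 CPM for Timp1, above combination replicate 2. The call of Has1 ended without doxorubicin replicate 1 (2.33) or 2 (2.06) or combination replicate 3 (1.35), and that of Timp1 without combination replicate 1 (1.26) or 3 (0.69), control replicate 3 (1.19) or any doxorubicin library (1.08 to 1.32). Both also ended in limma-voom (1.28 and 0.69) and with the library of the highest fibroblast mean left out of each group (1.27 and 0.55). The list had 3 higher genes without doxorubicin replicate 2 and 5 without doxorubicin replicate 3 or combination replicate 1.

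The fibroblast and sarcoma cell list had 28 of 33 genes positive and a median of 0.62, with 1 gene, Timp1, higher at the thresholds. Its defining collagens moved with single libraries. Col1a1 was at 109, 17.7 and 44.0 CPM with doxorubicin and 10.5, 27.4 and 135 CPM with the combination, and Col3a1 at 317, 38.1 and 278 CPM and 35.2, 50.6 and 837 CPM. Without combination replicate 3 the median of this list was -1.53, whereas that of the stromal inflammatory and matrix list was 0.69, with 7 higher genes. With the fibroblast mean as a covariate the medians were -0.12 and 1.09, and the stromal inflammatory and matrix list had 16 higher genes. This covariate is the mean of the fibroblast and sarcoma cell list itself, so the smaller median of that list followed from the fit. Timp1 is in both lists, and the part of fibroblasts in the stromal inflammatory and matrix genes was not tested. The covariate was chosen after the data were seen.

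Some transcripts of cells outside the leukocyte gate also passed the thresholds. Of 14 skeletal muscle genes, 3 were higher (Car3, Cavin4 and Mylpf), against 0.867% over all genes. Cavin4 and Mylpf are among the genes the study itself picked as higher in this contrast, so they are no independent evidence. With the filter of CPM at least 1 in 3 libraries, 0 genes of this list were higher. All 3 were under 2 CPM in every library, and the call of Cavin4 at 1.29 ended without doxorubicin replicate 3 (1.04) or combination replicate 1 (1.00). The smooth muscle gene Tagln (1.43), also picked by the study, and the endothelial adhesion gene Sele (2.75) were higher and did not overlap. Control replicate 2 was at 1.90 CPM for Tagln, above combination replicate 3 (1.16 CPM). For Sele it was at 1.23 CPM, above combination replicates 1 (0.961 CPM) and 3 (0.458 CPM). The calls of Mylpf, Tagln and Sele each ended without any of 6 of the 9 libraries, at 1.08 to 1.93, 1.12 to 1.51 and 2.19 to 3.28. Krt10, a keratin of skin, was at 28.6 CPM in combination replicate 2 and at 0.974 to 2.80 CPM in the other compared libraries, and its log2 fold change of 2.64 was -0.02 without that library. The haemoglobin genes Hba-a1 and Hbb-bs were lower at -2.80 and -2.74 without overlap, and reads of such near-identical copies may be split between them. Their calls ended without doxorubicin replicate 3 (-2.35 and -1.99) or combination replicate 1 (-2.43 and -2.61), that of Hba-a1 also without combination replicate 2 (-2.57) and that of Hbb-bs without replicate 3 (-2.69). The median of the 20 mitochondrially encoded genes, each of them positive, was 1.32 with 2 genes higher, and it was -0.04 without combination replicate 1. In that library the mitochondrial share was the highest of all 9, and its part in other results was not tested beyond a fit without mitochondrial and haemoglobin genes, which gave 123 higher and 68 lower genes.

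Among the lower genes, the lncRNA 4933406C10Rik had the smallest p (0.00043), with 21, 9 and 12 counts in the doxorubicin libraries, 10 to 17 in control and 0 in each combination library. Of the 10 lower genes with the smallest p once predicted genes and clone names were left out, most were low in expression and belonged to no list. Depp1, a target of FOXO transcription factors, was at 5.38, 5.82 and 9.32 CPM with doxorubicin and 2.59, 2.03 and 1.93 CPM with the combination, close to the 2.23 to 5.10 CPM of control. The log2 fold change came to -1.65 (standard error 0.39), and it overlaps Rassf4 on the opposite strand, which was at -0.00. Rab3a, a GTPase of regulated secretion, was at 2.38, 4.29 and 3.65 CPM and at 1.05, 1.74 and 1.64 CPM, a log2 fold change of -1.22 (standard error 0.40). Both separated the groups fully and held without any single library. Zfp2, a zinc finger protein, had 85 counts over the doxorubicin libraries and 23 over the combination libraries, a ratio of 0.257 (exact 95% interval 0.155 to 0.411). Tmod1, which caps actin filaments, was at -2.00, Tpbgl, a leucine-rich repeat protein, at -1.60, Tom1l1, an adaptor of vesicle traffic, at -1.04 and Ehhadh, an enzyme of peroxisomal fatty acid oxidation, at -1.14. The calls of Tom1l1 and Ehhadh ended without doxorubicin replicate 2 (-0.82 and -0.85), and that of Tom1l1 also without combination replicate 3 (-0.88). Both ended in limma-voom (-0.85 and -0.67). With the library of the highest fibroblast mean left out of each group, the calls of Tmod1 (-1.18), Tpbgl (-1.21), Nptx1 (-1.99) and Ehhadh ended. Nptx1, a neuronal pentraxin, had 67 and 14 counts in the groups.

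The lists of the cell cycle, of p53 targets and of hypoxia and glycolysis stayed near the median of all genes, 0.07. Cell cycle genes had a median of -0.11 over 36 genes, p53 targets 0.09 over 30, and hypoxia and glycolysis genes 0.14 over 32, each with 0 calls in either direction. Cdkn1a, the p53 target p21, was at 363, 456 and 450 CPM with doxorubicin and 850, 822 and 316 CPM with the combination, and its log2 fold change of 0.65 did not pass. Genes of NRF2 and the stress response had 24 of 26 positive with a median of 0.39, and Osgin2 alone was higher, at 1.20, a call that ended without combination replicate 2 (0.78).

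The counts of called genes rested on single libraries to a large extent. Without combination replicate 3, 334 genes were higher and 326 lower, and without combination replicate 2 the numbers were 75 and 206. The omission of combination replicate 1 gave 90 and 58, and that of each doxorubicin library 98 to 158 higher and 50 to 85 lower genes. With 3 libraries against 3, an exact two-sided permutation test cannot give a p below 0.1.

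**Figure D4:**
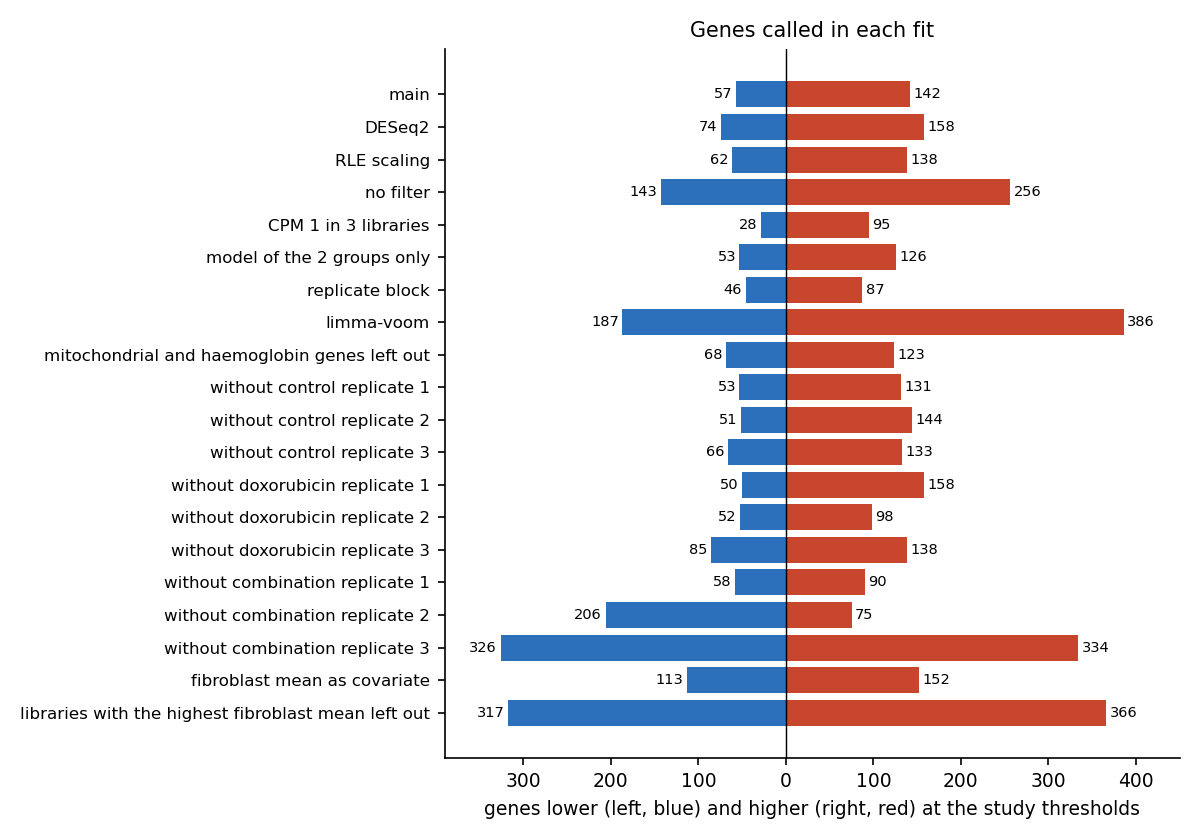
Bars give the number of genes higher (red, right) and lower (blue, left) at the study thresholds in each fit, with the count at the end of each bar. The longest bars belong to limma-voom and to the fits without combination replicate 3, where 326 lower and 334 higher genes stand against 57 and 142 in the fit of all libraries.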

How the data were processed

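The study sequenced poly(A) RNA of CD45 bead-sorted tumor cells, with 3 libraries each of control vehicle, doxorubicin and doxorubicin + ADU-S100. By the study's methods, the authors used Trimmomatic (0.38) for read trimming, HISAT2 (2.1.0) for alignment against mm10 and StringTie for read counts per gene, for which the submitters' processing notes give 2.1.3b. These notes also name SAMtools (1.9), HISAT and Bowtie2. The methods name TRIzol for the RNA and the labels an RNeasy Micro kit. The deposited table holds these counts as whole numbers, not normalized, for 45777 genes. StringTie derives counts from transcript coverage, and the strand setting of the counting is not given in the sources used here, so overlapping genes may not be separated. Not every overlapping gene is reported here. The labels name a stranded library kit.

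Every value column matched a library by its name. Counts were scaled by TMM, genes were kept by filterByExpr, and all 9 libraries entered a quasi-likelihood model of group means in edgeR (4.0.16, R 4.3.3). The contrast was doxorubicin + ADU-S100 minus doxorubicin, two-sided, with Benjamini-Hochberg adjustment over the 16373 genes tested. The study thresholds require a fold above 2 and p under 0.05 without adjustment. A prior count of 2 was added for log2 CPM values. The alternatives were DESeq2 (1.42.0), limma-voom (limma 3.58.1) with quality weights, RLE scaling, no filter, CPM of at least 1 in 3 libraries, a fit of only the compared groups, the replicate number as a block, mitochondrial and haemoglobin genes left out, and each library left out. After seeing the data, those on the fibroblast mean were added. The fit was tested on simulated counts.

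The comparison, the 35 gene lists and the named genes were chosen with earlier results of these data known, and lists share members. Some hold genes the study picked from these libraries, so they are no independent evidence. Named were the 12 higher and 10 lower genes with the smallest p, leaving out predicted genes and clone names, up to 4 members of each list with the smallest p, and a fixed set around STING, interferon, Ly6, T cells and Ptprc. Other members past the thresholds were named after their values were seen. Coordinates are from RefSeq on GRCm38, and promoter windows from RefSeq covered 11805 of the genes. At 50110494 to 69456603 counts per library, counting error was small beside replicate differences except for genes of few counts.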

Additional observations from a re-analysis of the deposited data

How the results depend on the processing

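Counts of genes at the study thresholds are given as higher and lower. They were 158 and 74 with DESeq2, 138 and 62 with RLE scaling, 256 and 143 with no filter on low counts, 95 and 28 with CPM of at least 1 in 3 libraries, 126 and 53 in the model of the 2 groups only, 386 and 187 with limma-voom and 123 and 68 without mitochondrial and haemoglobin genes. The fibroblast covariate gave 152 and 113, and leaving out the library with the highest fibroblast mean of each group (control 2, doxorubicin 1 and combination 3) gave 366 and 317, both chosen after seeing the data. With each library left out in turn the counts ranged from 75 to 334 and from 50 to 326. The replicate block gave 87 and 46, with 305 genes at an unadjusted p under 0.05. Same-numbered libraries deviated with correlations of -0.27, 0.38 and 0.29, and differently numbered ones with -0.58 to 0.45. With 3 libraries per group, these values cannot decide whether the numbers pair the libraries. DESeq2 gave 9 genes an adjusted p under 0.05, and 0 passed in edgeR or limma-voom under the other settings. Of 61 named genes past the thresholds, 21 kept their call in every setting, and the log2 fold change of Krt10 with single libraries left out ranged from -0.024 (combination replicate 2) to 3.21. The causes of these shifts were not tested. Genes of few counts, such as interferons, limit what this depth can show.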
